A study of Drosophila melanogaster with 12 samples.

Results

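The genes described here belong to families that store, carry and sense iron in Drosophila melanogaster. They are the 2 subunits of secreted ferritin (Fer1HCH and Fer2LCH), the transferrins Tsf1, Tsf2 and Tsf3, the iron importers Mvl and mfrn, and the iron regulatory proteins Irp-1A and Irp-1B. The rule lists the members by name, and all 9 genes were found, on 11 of the 18952 probe sets of the array. A probe set is a group of short oligonucleotides that reads 1 transcript or, for some, more than 1. Each was matched by the gene symbol in the deposited table, except that of mfrn, which is listed there as CG4963 and was matched by its transcript accession. Of the 11 probe sets, 10 passed the filter on low values, which asked for log2 4 or more on 3 or more arrays, and each of the 9 genes kept at least 1. The probe set left out was the third of Tsf1, which stayed under log2 4 on all 12 arrays, so its level has only a bound.

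The study measured RNA of third-instar larvae on 12 Affymetrix arrays, in 4 groups of 3, to find transcripts that depend on MiT, the fly transcription factor listed in the files as Mitf. The mutant hindguts with Malpighian tubules came from larvae carrying the MiT allele MiTTZ2 over the deficiency Df(4)TZ, and the wild-type hindguts with tubules from larvae described as wild type. The MiT-labelled wing discs carried nub-Gal4, a driver active in the wing pouch, with UAS-MiT, and the control wing discs carried nub-Gal4 alone. The transgene is thus driven in part of the disc, while the control discs share its driver. Whether the 3 arrays of a group came from separate animals or cultures is not stated, so the p-values measure the spread between these samples, and the number of arrays limits the precision.

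In insects most ferritin is secreted, as a shell of heavy and light chains that holds iron, and it passes through the secretory pathway rather than staying in the cytosol. Of the transferrins, Tsf1 is the main iron carrier of the hemolymph. Whether Tsf2 and Tsf3 carry iron was not tested, and they are listed here as members of that family. Mvl, the fly member of the NRAMP (DMT1) family, brings iron across the plasma membrane or out of endosomes, and mfrn, mitoferrin, brings it into mitochondria for iron-sulfur clusters and haem. Irp-1A and Irp-1B are cytosolic aconitase relatives. Irp-1A can bind iron-responsive elements, stem loops in messenger RNAs such as those of Fer1HCH and SdhB.

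The Mitf probe set checked the labels. It read 4.54, 4.19 and 4.51 in the mutant hindgut-tubule samples, against 7.05, 6.55 and 6.16 in the wild-type ones, a log2 difference of -2.17 (limma, adjusted p = 5.87e-05). In the discs it read 8.02, 8.11 and 8.21 with the MiT label, against 7.93, 7.91 and 8.15 in the controls, a log2 difference of 0.12 (limma, adjusted p = 0.825), so that a higher Mitf transcript was not detectable with this probe set under the label of MiT overexpression. Of 10 tubule markers, 10 exceeded log2 4 on every hindgut-tubule array and 3 on every disc array. Of 7 hindgut markers, 5 were higher in wild-type hindguts with tubules than in control discs, while Dr (mean 2.99, under log2 4, against 11.06) and bowl (a difference of -2.79) were lower. Array 2 of the mutant hindgut-tubule group stood apart, with 8394 probe sets over log2 4, against 7752 to 7911 on the other 11 arrays. Fat body markers were also high in the hindgut-tubule samples, with a mean log2 value of 9.90 to 11.62 in mutants and 10.68 to 12.10 in wild type.

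At normal MiT, 7 of the 9 genes were higher and 1 was lower in wild-type hindguts with tubules than in control discs (limma, adjusted p under 0.05), while 30% of all tested probe sets were higher and 47.6% lower, 77.6% in all. No array of one group lay within the range of the other for 8 of the 9 genes, as for 81.9% of the tested probe sets. The median log2 difference of the 9 genes was 1.05, beside -0.34 over all 8678 tested. Tsf3 had the largest difference of the 9, at 3.98 (SE 0.29, 15.8-fold, adjusted p = 4.16e-07), followed by Irp-1B at 2.40 (SE 0.14, 5.28-fold, adjusted p = 6.71e-08). Tsf2, which in the fly embryo is a septate junction protein, was the exception, with a log2 difference of -1.85 (SE 0.13, 3.61-fold lower in the hindgut-tubule samples, adjusted p = 2.40e-07). Mvl did not pass the test, with a log2 difference of -0.044 (95% confidence interval -0.57 to 0.48, adjusted p = 0.872). Fewer cells of a type and less RNA per cell cannot be told apart in such bulk samples.

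**Figure D1:**
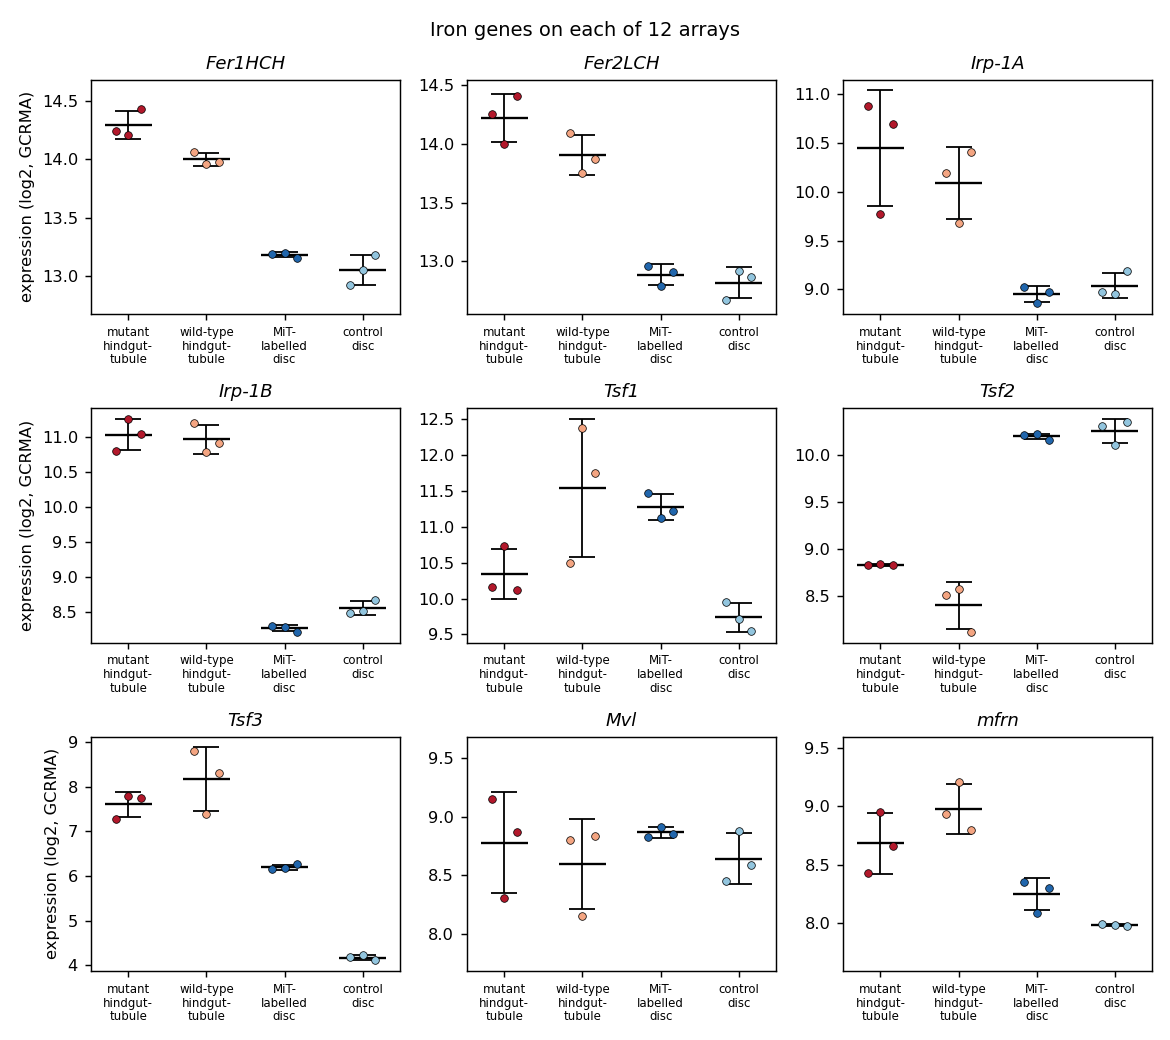
Log2 GCRMA value (y axis) of each of the 9 genes on the 3 arrays of each group (x axis), with the group mean as a wide line and its SD as bars. Tsf3 in control discs lies at 4.11 to 4.22, just above the level of 4 used for testing, and Tsf2 is the gene whose disc values lie above its hindgut-tubule values.

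In mutant hindguts with tubules, 1 of the 9 iron genes was higher than in wild type, Tsf2, beside 8.09% of all tested probe sets. None was called lower by limma, beside 7.21% of all tested. At an unadjusted p under 0.05, 3 were higher (Fer1HCH, Fer2LCH and Tsf2) and 1 was lower (Tsf1). The share of all tested probe sets under that unadjusted p was not counted, so such counts, here and below, have no background beside them. Of the 9, 2 (Fer1HCH and Tsf2) had groups without overlap, as 26% of all tested had. With the hindgut-tubule samples paired by replicate number (a block chosen after seeing the data), 2 were higher (Fer1HCH and Tsf2) and 1 was lower (Tsf1). In the MiT-labelled discs, 2 of the 9 were higher than in control discs, Tsf1 and Tsf3, beside 7.13% of all tested probe sets. None was lower by limma, also at an unadjusted p under 0.05, beside 5.27% of all tested. In the discs, 4 of the 9 (Tsf1, Tsf3, Irp-1B and mfrn) had groups without overlap, as 47.8% of all tested had. The median log2 difference of the 9 genes was 0.18 in the mutant comparison (all tested -0.0032) and 0.13 in the discs (all tested -0.026). Calls over all tested probe sets were 702 higher and 626 lower in the mutants, or 384 and 590 with each array centred on its median and 1154 and 1168 with the pairing, and 619 higher and 457 lower in the MiT-labelled discs, or 488 and 208 with that centring. The medians used for centring were those of all 18769 probe sets without controls. They lay at 2.64 to 3.03, under log2 4, and mutant array 2 had the highest.

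**Figure D2:**
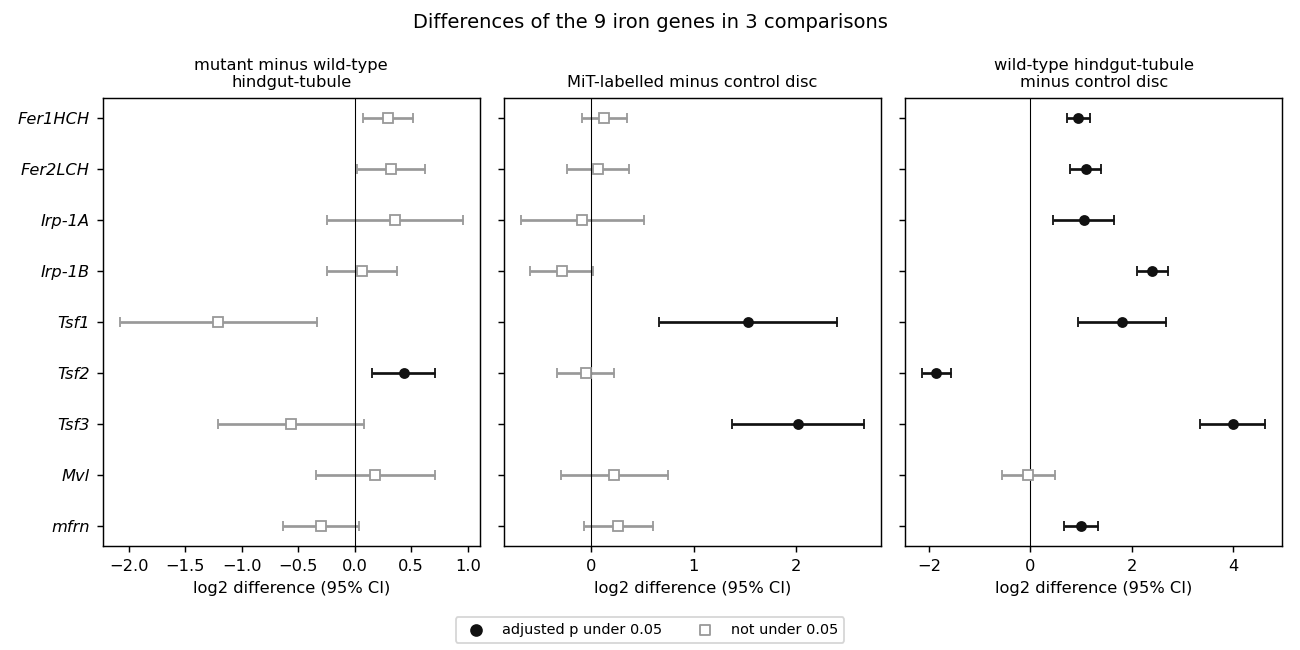
Log2 difference (x axis, with its 95% confidence interval from limma) of the 9 genes in 3 comparisons, each on its own scale. Filled points have an adjusted p under 0.05. In the mutant panel Tsf2 is filled, at 0.43, and in the disc panel Tsf1 and Tsf3 are, at 1.53 and 2.02.

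Both ferritin subunits were read at a high level in every group. Fer1HCH, the heavy chain with the ferroxidase centre, read 14.24, 14.21 and 14.43 in mutant hindguts with tubules, against 14.06, 13.96 and 13.97 in wild type, so each mutant array lay above each wild-type array. The difference was 0.29 (SE 0.10, 1.23-fold) and did not pass the threshold (limma, adjusted p = 0.0770), but did so with the pairing (adjusted p = 0.0455). Fer2LCH, the light chain, read 14.25, 14.00 and 14.41 in the mutants, against 14.09, 13.75 and 13.87 in wild type. These groups overlapped, the difference was 0.32 (95% confidence interval 0.016 to 0.62), and the adjusted p was 0.155. Of the 12 fits that left out 1 array, 1 called each gene, that without mutant array 2 (limma, adjusted p = 0.0491 for Fer1HCH and 0.0453 for Fer2LCH). Over the 12 fits the adjusted p ran up to 0.234 for Fer1HCH and 0.399 for Fer2LCH.

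In the discs, Fer1HCH read 13.19, 13.20 and 13.16 with the MiT label, against 12.93, 13.05 and 13.19 in the controls, and the groups overlapped. Its difference was 0.13 (95% confidence interval -0.094 to 0.35, adjusted p = 0.500), and that of Fer2LCH was 0.067 (95% confidence interval -0.23 to 0.37, adjusted p = 0.867). Between wild-type hindguts with tubules and control discs, Fer1HCH differed by 0.94 (1.92-fold) and Fer2LCH by 1.09 (2.12-fold), with adjusted p-values of 8.14e-06 and 2.91e-05. Both genes kept one order of group means, mutant, wild type, MiT-labelled disc, control disc, and the 2 disc groups overlapped for each. Fer1HCH and Fer2LCH are neighbouring genes, and the probe set of each carries 1 gene symbol. These probe sets, like that of Mvl, are of a kind that can read more than 1 transcript. Whether they read any transcript in common was not tested.

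Midgut markers were read beside the ferritins, since the midgut has iron-storing cells in which ferritin is abundant. Of 12 midgut markers, 9 were measured, and mex1 and alphaTry were the ones over log2 4 on every hindgut-tubule array. The log2 summed signal of the 9 was 11.58, 11.53 and 11.45 in the mutants, against 10.97, 10.18 and 11.00 in wild type, and 5.47 to 5.80 in the discs. Of the 2 tested, mex1 was higher in the mutants, at 11.00, 11.08 and 11.12 against 10.48, 10.01 and 10.49 in wild type (0.74, adjusted p = 0.00389), and alphaTry was not called (adjusted p = 0.163). Fitted on the 6 hindgut-tubule arrays alone, mex1 missed the threshold (limma, adjusted p = 0.0798). The part of these markers in the ferritin values was not tested.

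Tsf3 showed the largest difference of the 9 genes in the discs. It read 6.15, 6.18 and 6.26 with the MiT label, against 4.20, 4.22 and 4.11 in the controls, so every MiT-labelled array lay above every control array. The difference was 2.02 (SE 0.29, 95% confidence interval 1.37 to 2.67), a 4.05-fold higher level, with an adjusted p of 0.00139. The authors' deposited table gives Tsf3 an adjusted p of 0.0114 in the discs. In the hindgut-tubule samples, Tsf3 read 7.28, 7.78 and 7.75 in mutants, against 8.80, 7.39 and 8.30 in wild type. These groups overlapped, with wild-type array 2 among the mutants, and the difference was -0.56 (SE 0.29, adjusted p = 0.241). Without wild-type array 2 it was -0.95 and passed (adjusted p = 0.00750), the 1 of the 12 fits leaving out 1 array that did. Over those fits it ran from -0.95 to -0.24, with an adjusted p of up to 0.591.

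For Tsf3 the difference between MiT-labelled and control discs was larger than that between wild-type and mutant hindguts with tubules. The first was 2.02 and the other 0.56, and the test of the difference gave 1.46 (SE 0.41, 95% confidence interval 0.55 to 2.37, adjusted p = 0.0350). It was the 1 gene of the 9 that passed this test, beside 9.63% of all tested probe sets in that direction, 8.01% in the other and 17.6% in all. The Mitf probe set read 0.12 higher in the MiT-labelled discs (adjusted p = 0.825), so the disc difference is set by the label and not by a measured MiT level. Between mutant and wild-type hindguts with tubules the Mitf probe set differed by -2.17 (limma, adjusted p = 5.87e-05). With the pairing Tsf3 passed (adjusted p = 0.0274), as did Fer1HCH, whose difference was 0.42 (adjusted p = 0.0393 with the pairing, 0.0665 without). Unpaired, Tsf3 missed the threshold in 9 of the 12 fits that left out 1 array, at up to 0.0779, and held in those without mutant array 1 or wild-type hindgut-tubule arrays 1 or 2. Without the filter on low values Tsf3 missed it (adjusted p = 0.0875) and Fer1HCH passed (adjusted p = 0.0432).

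Tsf1, the hemolymph iron carrier, had a higher mean in MiT-labelled discs and a lower mean in mutants, each against its control. It read 11.47, 11.12 and 11.23 in MiT-labelled discs, against 9.95, 9.72 and 9.54 in control discs, with no overlap. The difference was 1.53 (SE 0.39, 2.90-fold, 95% confidence interval 0.66 to 2.41) and passed (adjusted p = 0.0295). It missed the threshold without any 1 of the 6 disc arrays, with adjusted p-values of 0.0613 to 0.101, and without the filter on low values (0.0792). With the 6 disc arrays fitted alone it passed (limma, adjusted p = 0.000972). The SD of Tsf1 was 0.18 in MiT-labelled and 0.20 in control discs, against 0.35 in mutant and 0.96 in wild-type hindguts with tubules. The authors' deposited table gives Tsf1 an adjusted p of 0.120 in the discs. In the hindgut-tubule samples Tsf1 read 10.16, 10.74 and 10.12 in mutants, against 10.50, 12.39 and 11.75 in wild type, so wild-type array 1 lay among the mutants. The difference was -1.21 (95% confidence interval -2.08 to -0.34, adjusted p = 0.0654), and it passed with the pairing (adjusted p = 0.00937). Array 2 was the highest in both groups. Without wild-type array 1 it was -1.73 and passed (adjusted p = 0.00252). Without mutant array 2 it passed too (adjusted p = 0.0468). These were the 2 of the 12 fits leaving out 1 array that passed. Over those fits the difference ran from -1.73 to -0.79, with an adjusted p of up to 0.176.

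A second Tsf1 probe set, at lower levels, pointed the same way in its group means, but not in the order of arrays. MiT-labelled array 1 and mutant array 2 were the highest of their groups in the main probe set and the lowest in the second. The second read 5.87, 6.57 and 6.88 in MiT-labelled discs, against 5.61, 5.50 and 4.40 in controls. In mutant hindguts with tubules it read 6.22, 5.77 and 6.31, against 6.79, 7.11 and 8.27 in wild type. Both differences, 1.27 in the discs and -1.29 in the mutants, missed the threshold (adjusted p = 0.0951 and 0.0776), although neither pair of groups overlapped, and the second passed with the pairing (adjusted p = 0.0479). For Tsf1 the difference between MiT-labelled and control discs was not detectably larger than that between wild-type and mutant hindguts with tubules, the difference of both being 0.33 (95% confidence interval -0.91 to 1.56, adjusted p = 0.733) in the main probe set.

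Tsf2 was the 1 iron gene called in the mutants. It read 8.83, 8.85 and 8.83 in mutant hindguts with tubules, against 8.51, 8.58 and 8.12 in wild type, with no overlap. The difference was 0.43 (SE 0.13, 1.35-fold, 95% confidence interval 0.15 to 0.71, adjusted p = 0.0441). It sat near the threshold: the adjusted p was 0.0203 with the pairing, and it missed 0.05 in 10 of the 12 fits that left out 1 array, at up to 0.119, the exceptions being those without wild-type hindgut-tubule array 2 or control disc array 2. The authors' deposited table gives it an adjusted p of 0.0819. In the discs Tsf2 read 10.21, 10.22 and 10.17 with the MiT label, against 10.31, 10.11 and 10.35 in the controls, overlapping groups that differed by -0.0565 (95% confidence interval -0.34 to 0.22, adjusted p = 0.885).

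Markers of other cell types were read beside the transferrins. Tsf1 is made in the fat body, and hemocytes, the blood cells of the fly, can lie on discs. Of 8 hemocyte markers, 5 were higher in the MiT-labelled discs by limma, with a median log2 difference of 1.84, beside 7.13% of all tested probe sets and a median of -0.026. Their log2 summed signal was 11.68, 11.87 and 12.16 with the MiT label, against 10.60, 10.83 and 10.30 in the controls, with no overlap. Fat body markers varied among arrays of 1 group, at a log2 summed signal of 13.94, 10.12 and 7.07 with the MiT label, against 13.73, 12.36 and 14.59 in the controls. None of the 7 tested fat body markers was called in the discs by limma, and 3 were lower at an unadjusted p under 0.05. Of 8 fat body markers, 6, 6 and 2 exceeded log2 4 on the MiT-labelled arrays, against 6 on each control array. In the hindgut-tubule samples the fat body signal was 15.16, 16.96 and 16.86 in mutants, against 15.95, 17.09 and 16.40 in wild type. Of 6 muscle markers, 2 were higher in the MiT-labelled discs and 2 in the mutants (8.09% of all tested probe sets were higher there), and at an unadjusted p under 0.05 these counts were 6 and 5. No share of all tested probe sets was counted at that unadjusted threshold. The part of the fat body, hemocyte and muscle values in the transferrin results was not tested.

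**Figure D3:**
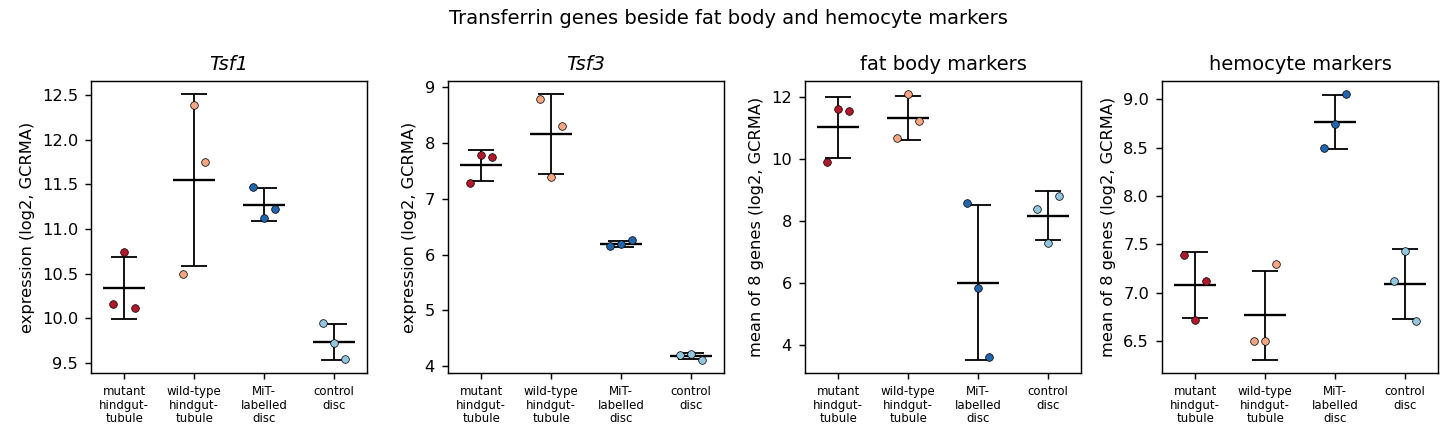
Log2 GCRMA values of Tsf1 and Tsf3, and the mean log2 value of 8 fat body and 8 hemocyte markers (y axes), on each of the 12 arrays by group (x axis), with the group mean as a wide line and its SD as bars. The hemocyte mean lies at 8.49 to 9.05 on MiT-labelled discs, above the 6.71 to 7.43 of control discs, while the fat body mean ranges from 3.60 to 8.59 on the MiT-labelled discs.

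Neither importer was called by limma in the mutants or in the MiT-labelled discs. Mvl read 9.16, 8.31 and 8.87 in mutant hindguts with tubules, against 8.80, 8.16 and 8.83 in wild type, with array 2 lowest in both groups. Its difference was 0.18 (95% confidence interval -0.34 to 0.71, adjusted p = 0.686). In the discs it read 8.83, 8.92 and 8.85 with the MiT label, against 8.46, 8.88 and 8.59 in the controls, a difference of 0.23 (95% confidence interval -0.30 to 0.75, adjusted p = 0.658). All 4 groups of Mvl overlapped their neighbours in the order of means. Mitoferrin, mfrn, read 8.43, 8.95 and 8.66 in the mutants, against 8.93, 9.21 and 8.79 in wild type, overlapping groups that differed by -0.30 (95% confidence interval -0.63 to 0.041, adjusted p = 0.236). In the discs it read 8.35, 8.09 and 8.30 with the MiT label, against 7.99, 7.99 and 7.98 in the controls. Each MiT-labelled array lay above each control array, yet the difference of 0.26 (95% confidence interval -0.074 to 0.60) did not pass (adjusted p = 0.333). Its level in wild-type hindguts with tubules was 1.99-fold that in control discs (adjusted p = 0.000134).

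The genes of the iron regulatory proteins differed mainly between tissues. Irp-1A read 10.87, 9.77 and 10.69 in mutant hindguts with tubules, against 10.19, 9.68 and 10.40 in wild type, with array 2 lowest in both groups. The difference was 0.35 (95% confidence interval -0.25 to 0.96, adjusted p = 0.445), and without mutant array 2 it was 0.69 and passed (adjusted p = 0.0325). That was the 1 of the 12 fits leaving out 1 array that passed. Over those fits the difference ran from 0.14 to 0.69, with an adjusted p of up to 0.809. In the discs Irp-1A differed by -0.087 (95% confidence interval -0.69 to 0.51, adjusted p = 0.935). Irp-1B read 10.80, 11.25 and 11.04 in the mutants, against 11.19, 10.78 and 10.91 in wild type, a difference of 0.067 (95% confidence interval -0.24 to 0.38, adjusted p = 0.819). In the discs it read 8.30, 8.29 and 8.22 with the MiT label, against 8.49, 8.52 and 8.67 in the controls. Every MiT-labelled array lay below every control array, and the difference of -0.29 (95% confidence interval -0.60 to 0.019) did not pass (adjusted p = 0.231). Fitted on the 6 disc arrays alone it did (adjusted p = 0.0297). Both genes were higher in wild-type hindguts with tubules than in control discs, Irp-1A by 1.05 (2.07-fold, adjusted p = 0.00456).

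Genes that use iron once it is in the cell were read beside the 9. Of 18 genes of iron-sulfur cluster assembly, 16 were measured and 15 tested. In the mutants 2 of the 15 were lower, Ciao1 and Hsc20, and none was higher by limma (2 at an unadjusted p under 0.05), beside 7.21% of all tested probe sets lower and 8.09% higher. Ciao1, of the cytosolic assembly machinery, read 9.38, 9.19 and 9.51 in mutants, against 10.24, 10.34 and 10.29 in wild type, with a wide gap between the groups. It fell by 0.93 on the log2 scale (SE 0.10, adjusted p = 0.000172). Hsc20, a mitochondrial co-chaperone, read 4.11 to 4.18 in mutants, against 4.86 to 4.97 in wild type, close to the level of 4 in both groups (-0.75, adjusted p = 0.00566). Array weights ended its call (adjusted p = 0.0527), and it was not tested at a filter of log2 5. In the MiT-labelled discs 1 of the 15 was lower, galla-2, beside 5.27% of all tested. Its difference was -0.61 (adjusted p = 0.0172), and it missed the threshold without any 1 of the disc arrays other than control array 1 (up to 0.0710) and with centring (0.0771). None was higher there by limma, also at an unadjusted p under 0.05, and Ciao1 differed by -0.32 (adjusted p = 0.0634). The list's median was 0.0499 in the mutants and -0.14 in the discs (all tested -0.0032 and -0.026).

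All 9 genes of haem synthesis and breakdown were tested. Pbgs, the second enzyme of haem synthesis, was the 1 of them called in the mutants, where it read 9.41, 9.35 and 9.49, against 8.61, 9.01 and 8.46 in wild type (0.72, adjusted p = 0.0301). It missed the threshold without array 1 or array 3 of either group, at up to 0.104, without the filter (0.0643) and with centring (0.104). Fitted on the 6 hindgut-tubule arrays alone, Pbgs missed it too (limma, adjusted p = 0.0925). Ho, the haem oxygenase that frees iron from haem, was the 1 called in the discs. These counts, 1 higher of 9 in the mutants and 1 lower of 9 in the discs, stand beside 8.09% and 5.27% of all tested probe sets. Ho read 9.89, 10.39 and 9.78 with the MiT label, against 10.59, 11.66 and 11.48 in the controls. Every MiT-labelled array lay below every control array (-1.22, SE 0.30, 2.33-fold lower, adjusted p = 0.0249). It missed the threshold without MiT-labelled array 1 or 3 or control array 2 or 3, at up to 0.0983, without the filter (0.0651) and with centring (0.0517). In the mutants Ho differed by -0.26 (adjusted p = 0.645). The list's median was -0.085 in the mutants and -0.0997 in the discs.

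Of 10 other genes of iron handling, 8 were tested. CG8399 was higher in both comparisons, by 0.55 in the mutants (adjusted p = 0.00746) and by 0.38 in the MiT-labelled discs (adjusted p = 0.0470). In each it was the 1 of the 8 called higher, beside 8.09% of all tested probe sets in the mutants and 7.13% in the discs. It read 9.94, 9.56 and 9.82 in mutants, against 9.17, 9.29 and 9.20 in wild type. In the discs it read 9.17, 9.14 and 9.26 with the MiT label, against 8.74, 8.85 and 8.84 in the controls, and neither pair of groups overlapped. The disc call was lost without any 1 of the 6 disc arrays, and without mutant array 3 or wild-type array 1 or 3, at up to 0.165. With centring both calls ended (adjusted p = 0.132 in the mutants and 0.279 in the discs). With the 6 arrays of each tissue fitted alone, the mutant call ended (limma, adjusted p = 0.114) and the disc call held (0.0104). SdhB, an iron-sulfur subunit of succinate dehydrogenase, and mAcon1, the mitochondrial aconitase, were lower in the mutants, 2 of the 8, beside 7.21% of all tested. SdhB read 10.85, 11.34 and 11.01 in mutants, against 11.56, 12.10 and 11.67 in wild type (-0.71, adjusted p = 0.0204). The value of mAcon1 was 11.67, 12.08 and 11.69 in mutants, against 12.28, 12.54 and 12.23 in wild type (-0.54, adjusted p = 0.0214). Both missed the threshold without mutant array 1 or 3, at up to 0.0683 for SdhB and 0.0819 for mAcon1. Fitted on the 6 hindgut-tubule arrays alone, both missed it too (limma, adjusted p = 0.137 for SdhB and 0.170 for mAcon1). In the discs SdhB differed by -0.038 and mAcon1 by 0.13, and neither was called. The median of the list was -0.24 in the mutants and 0.14 in the discs. All 8 were higher in wild-type hindguts with tubules than in control discs, with a median of 2.36, beside 30% of all tested probe sets and a median of -0.34. In that comparison 9 of the 15 iron-sulfur genes were higher and none was lower, with a median of 0.80. Of the 9 haem genes, 1 was higher and 1 lower, with a median of 0.056. Over all tested probe sets 47.6% were lower.

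**Figure D4:**
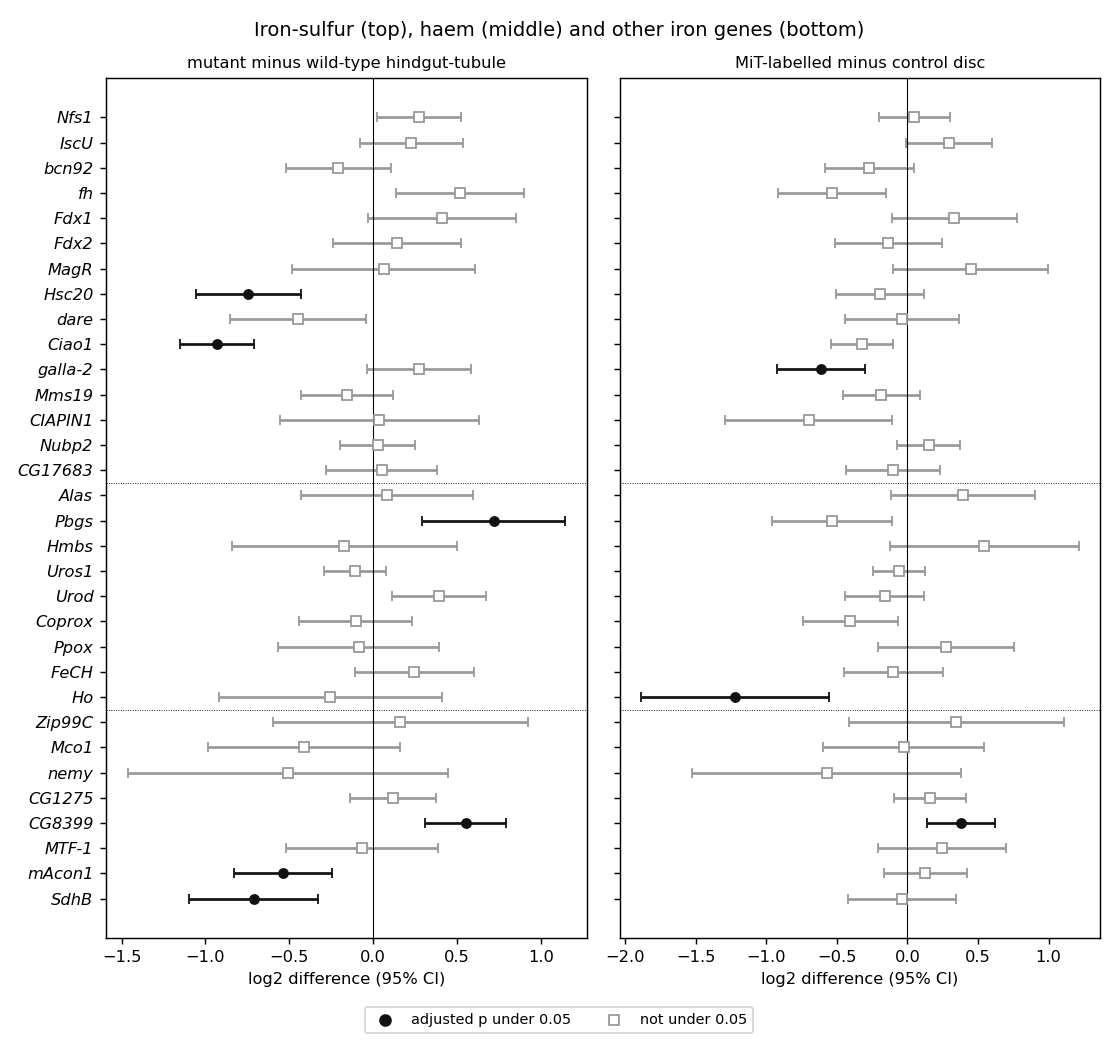
Log2 difference (x axis, with its 95% confidence interval from limma) of the tested genes of iron-sulfur cluster assembly, haem metabolism and other iron handling (rows), for mutant minus wild-type hindguts with tubules on the left and MiT-labelled minus control discs on the right. Filled points have an adjusted p under 0.05. Ciao1, at -0.93, lies farthest below 0 in the mutant panel, and Ho, at -1.22, in the disc panel.

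Genes with the pattern most like 3 of the members were found by Pearson's r over the 12 arrays among 7586 named genes, as a description, since the arrays share 2 tissues. Those nearest Fer1HCH were rdog (0.992), Kdsr (0.991) and CR18228 (0.990). Nearest Tsf1 were CG14671 (0.925), the gene listed in the deposited table as CG5903 (0.894) and P5CDh1 (0.892), and nearest Mvl were ITP (0.888), CG30394 (0.875) and CG7824 (0.855).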

How the data were processed

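RNA was measured on 12 Affymetrix Drosophila arrays. The log2 values were deposited by the authors after GCRMA normalization, per the submitters' processing notes, with no version given in the sources used here. They were used as deposited, and the values of the series table and of the samples differed by at most 0. The authors' deposited table gives a signed score, a fold with falls written as negative (mutant over wild type in the hindgut-tubule comparison, control over MiT in the discs), and p-values of their own tests. These are quoted only where named.

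From these values, 8678 probe sets that reached log2 4 on 3 or more arrays, of 18769 without the 183 controls, were fitted with limma 3.58.1 (R 4.3.3), with 1 mean per group over all 12 arrays, and p-values were adjusted by Benjamini-Hochberg over all 8678. The threshold was an adjusted p of 0.05. Symbols came from the deposited table and NCBI RefSeq gene names (Release 6): 14007 probe sets had 1 gene, 777 several and 3985 none. A gene was read by its probe set with the highest mean. Named genes were the 9 members, Mitf, the genes of the iron lists called in either main comparison, and the 3 most like Fer1HCH, Tsf1 and Mvl. Other markers and probe sets were named after their values were seen. The members and lists were chosen with earlier results of these data known. Replicate numbers were checked: deviations from group means of same-numbered hindgut-tubule samples correlated at 0.29, 0.38 and 0.14. Mutant array 3 correlated more with wild-type array 1 (0.34) than with its own number. These values do not settle how arrays 1 and 3 of the groups belong together. The numbers were still used as pairs, a choice made from these same data, so a pass with the pairing is no independent support for a call. A fit with the number as a block in those samples is given where it changes a call. No genome build was used, so no coordinates or sequences are given.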

Additional observations from a re-analysis of the deposited data

Results flagged for a closer look

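Tsf3 differed more between MiT-labelled and control discs than between wild-type and mutant hindguts with tubules. The difference of the differences was 1.46 on the log2 scale (SE 0.41, limma, adjusted p = 0.0350), being 2.02 in MiT-labelled against control discs and 0.56 in wild-type against mutant hindguts with tubules. The Mitf probe set differed by 0.12 in the discs (adjusted p = 0.825) and by -2.17 between mutant and wild-type hindguts with tubules. Of the 12 fits that left out 1 array, 9 missed the threshold, with adjusted p-values from 0.00816 to 0.0779 over the 12. It also missed the threshold without the filter on low values (0.0875). Wild-type hindgut-tubule array 2 read 7.39, beside 8.80 and 8.30 on the other arrays of its group. Groups of 3 are too small for a test of single outlying arrays.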

How the results depend on the processing

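Tsf3 in the discs was called under every alternative run (adjusted p up to 0.0114), and the tissue comparison kept 7 higher and 1 lower throughout. In the discs, 2 genes were higher, but 1 without the filter and 1 in the authors' deposited table, and 1 to 2 with 1 array left out. None was lower, but 1 was with the 6 disc arrays alone and 1 with array weights. In the mutants, 1 was higher, but 0 without the filter, 0 with 6 arrays, 0 with a replicate block shared by both tissues, 0 with centring and 0 in the authors' deposited table, 2 with a trended robust fit, and 0 to 3 with 1 array left out. It was 2 with the replicate block in the hindgut-tubule samples alone and 2 without their number 2 arrays, both chosen after seeing the data. None was lower, but 1 was with centring, 2 with array weights, 1 with the mean of probe sets, 1 without the number 2 arrays, 1 with the hindgut-tubule block and 0 to 1 with 1 array left out. For the difference between tissues 1 was higher (Tsf3, or Fer1HCH in its place without the filter), but 0 with the shared block, 0 with centring, 2 with the trended robust fit, 3 with array weights, 2 without the number 2 arrays, 2 with the hindgut-tubule block, and 0 to 1 with 1 array left out. The cause was not tested.

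Over all tested probe sets, 6 arrays alone gave 1181 higher and 1381 lower in the discs, and 191 and 169 in the mutants, against 619, 457, 702 and 626 with 12. The fit with 12 shares 1 variance per probe set among all groups, while their spread was unequal. Mean SDs of the tested probe sets were 0.34 in wild-type and 0.37 in mutant hindguts with tubules. In control and MiT-labelled discs they were 0.18 and 0.15. The shared variance thus tends to be larger than that of the discs and smaller than that of the hindgut-tubule samples. Among single genes, 1009 of the alternative values kept direction and side of the threshold, 80 lost the call, 26 gained it and 16 changed sign, none of these called. Irp-1B in the mutants was -0.013 with centring, -0.024 with array weights and -0.13 without the number 2 arrays, and -0.043 to 0.18 with 1 array left out. Mvl was -0.038 to 0.42 there and, between tissues, -0.16 to 0.18, or 0.19 with array weights and 0.18 without the number 2 arrays. With 1 array left out, Fer2LCH in the discs was -0.0086 to 0.12, and for the difference between tissues Tsf1 was -0.20 to 0.75 and mfrn -0.17 to 0.091. The disc numbers did not pair the samples (0.33, -0.054 and -0.18), and the shared block ended the calls of Tsf2 in the mutants (adjusted p = 0.0656), Ho (0.0509) and CG8399 (0.0773) in the discs, and Tsf3 between tissues (0.0549). With 6 arrays, Ciao1 (0.0214) and Hsc20 (0.0265) held, while mAcon1, SdhB, Pbgs, CG8399 and mex1 in the mutants missed (0.170, 0.137, 0.0925, 0.114 and 0.0798).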
